A study of Mus musculus with 56 samples.

Results

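Livers of day-fed and night-fed mice were compared at a single time of day, zeitgeber time (ZT) 16, early in the dark phase. Zeitgeber time counts hours from lights on, and the lights went off at ZT12. The comparison rests on 8 of the 56 RNA libraries of the series, chosen by the regimen and time in the sample labels and not by any measured value. In 4 of them food had been offered by day for 7 days (daytime-restricted feeding, DRF), so at ZT16 the mice were in their early fast. In the other 4 it had been offered by night (nighttime-restricted feeding, NRF), and the mice were sampled during their meal time. All were female C57BL/6J mice, put on the regimens at 8 weeks of age and sampled at 9 weeks, group housed under 12 h of light and 12 h of dark with the same normal chow, and none carried a transgene or received an agent. NRF keeps the meals in the phase in which mice normally eat and served as the reference. The labels call the tissue adult female liver, which holds hepatocytes together with other cells, and a lower value in such bulk tissue cannot tell fewer cells of a type from less RNA per cell. No group here had food at all hours, so ZT16 compares both restricted regimens with each other only, and fasting at ZT16 under DRF cannot be told apart from a clock set to a different hour.

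The liver clock is a loop in which ARNTL (BMAL1) with CLOCK or NPAS2 binds E-box sequences and switches on the Per, Cry, Nr1d and Ciart genes, whose products then repress that pair of activators or, for the NR1D (REV-ERB) proteins, the Arntl gene itself. Meal time is a strong cue for this loop in liver, where insulin, glucagon and body temperature change with feeding. A meal is also known to raise glycogen and fat synthesis and the load on the endoplasmic reticulum (ER), whereas a fast raises glucose output, fat burning and amino acid breakdown.

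Values are scaled counts, that is, whole counts rebuilt from the deposited gene table and multiplied by a scale of the library, which summed to between 870689 and 1056266 in the 8 libraries and so lie close to a CPM scale. They were not divided by gene length and compare libraries, not genes. Values are listed for replicates 1 to 4 in that order, means are given ± SD with n = 4, and differences are log2 values (DRF minus NRF, of scaled count + 1) ± SE. Adjusted p-values are those of limma over 25397 genes, with 0.05 as the threshold for a call.

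Libraries were close to each other within a regimen. Correlations across genes on the log2 scale were between 0.984 and 0.990 among the DRF libraries and between 0.979 and 0.984 among NRF replicates 1, 2 and 4. NRF replicate 3 stood apart, at 0.965 to 0.970 with the other NRF libraries. Recovered counts reached up to 603.2 M in the 8 libraries, with NRF replicates 1 and 4 at 331.7 M and 384.6 M. NRF replicate 3 had the fewest, 309.0 M. It also held a much lower value of Hsp90aa1 and the highest values of several ER genes, which are given below with and without it. Summed markers of hepatocytes lay between 96975 and 111473 under DRF and between 85845 and 140736 under NRF, and none of the 5 measured hepatocyte markers was at 0 in any library. None of the 8 Kupffer cell, 6 sinusoidal endothelial, 6 stellate, 5 B cell, 5 T cell, 3 neutrophil and 5 erythroid markers in the table was called. The single measured adipocyte and exocrine pancreas markers were not called either. Summed levels overlapped between regimens for Kupffer cells (726 to 847 under DRF, 554.5 to 747 under NRF) but not for sinusoidal endothelial cells (442 to 489 under DRF, 402 to 437 under NRF), and the part of either in the results below was not tested. Among markers, Hnf4a of hepatocytes was lower under DRF (log2 -0.42 ± 0.09, adjusted p = 5.10e-04). Krt7 of bile duct cells was higher (log2 0.26 ± 0.09, adjusted p = 0.0431). That call did not hold without DRF replicates 1, 2 or 4 or NRF replicates 1, 2 or 4 (adjusted p from 0.0605 to 0.157).

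At ZT16, 3847 of 25397 genes differed between regimens, or 15.1% of the genes tested. Of these, 2217 were higher under DRF (8.73% of genes) and 1630 lower (6.42%). The higher genes thus made up 57.6% of the calls, a split that moved to 46.9% when each library was corrected for a trend with gene length. With the spread taken from these 8 libraries alone, 1683 genes passed. The 4 DRF and 4 NRF libraries did not overlap for 4026 genes (15.9% of those tested), of which 2872 were called. Most differences were modest, with a median size of 0.41 on the log2 scale among the called genes, and 273 called genes reached a difference of 1, 162 of them higher and 111 lower. Over all genes the median difference was -0.00029. Among protein-coding genes with a mean of at least 1 scaled count, 2863 of 11661 were called (24.6%). Over genes of any type with such a mean the median difference was 0.037. Most listed genes reached that mean, so these values are the closer background for the list counts below.

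**Figure D1:**
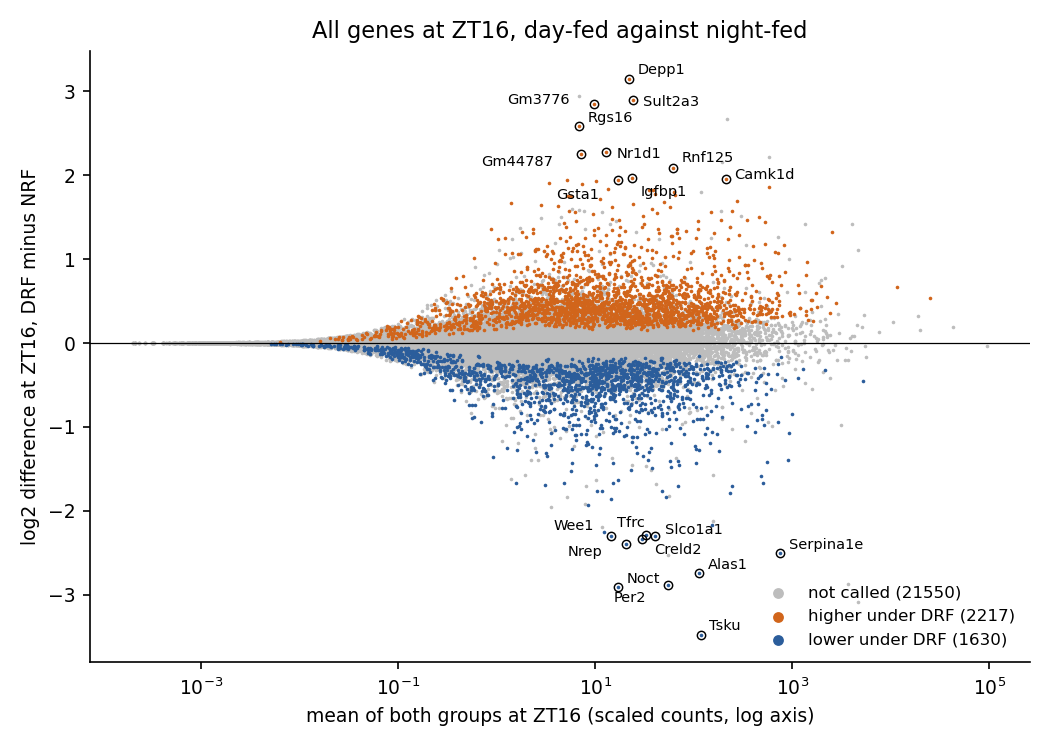
Each point is a gene, with the mean of both regimens at ZT16 in scaled counts on a log axis and the log2 difference between DRF and NRF on the vertical axis. Orange points mark the 2217 genes called higher under DRF and blue points the 1630 called lower. Circled and labelled are the 10 largest differences in each direction among called genes whose libraries did not overlap, from Depp1 at 3.15 to Tsku at -3.47.

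The core clock differed in both of its arms. Of the 5 activator genes 3 were higher and 1 lower under DRF (median log2 difference 0.32), of the 10 repressor genes 1 was higher and 6 lower (median -0.73), and of the 8 output genes 1 was higher and 7 lower (median -0.87). For each of these lists the share of called members was above the 15.1% of all genes.

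The upstream sequence of 3 of these genes is shown first, since the E-box (CACGTG, on either strand) and the REV-ERB and ROR response element (RORE core, TAGGTCA, on either strand) are the sites through which the loop is known to act. Windows of 300 bases, from 250 before to 50 after the RefSeq transcription start in GRCm38.p6, were read 5′ to 3′ on the strand of the gene, and capitals mark the matches. Per1 lies on the plus strand (chr11:69098699-69098998), Ciart on the minus strand (chr3:95882179-95882478) and Arntl on the plus strand (chr7:113207261-113207560).
Per1: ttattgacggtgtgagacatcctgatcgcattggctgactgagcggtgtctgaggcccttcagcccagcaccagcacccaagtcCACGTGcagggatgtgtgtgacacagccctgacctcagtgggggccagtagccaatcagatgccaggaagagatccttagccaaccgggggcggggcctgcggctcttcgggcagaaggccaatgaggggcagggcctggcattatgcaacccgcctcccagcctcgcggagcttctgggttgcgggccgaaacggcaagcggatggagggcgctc
Ciart: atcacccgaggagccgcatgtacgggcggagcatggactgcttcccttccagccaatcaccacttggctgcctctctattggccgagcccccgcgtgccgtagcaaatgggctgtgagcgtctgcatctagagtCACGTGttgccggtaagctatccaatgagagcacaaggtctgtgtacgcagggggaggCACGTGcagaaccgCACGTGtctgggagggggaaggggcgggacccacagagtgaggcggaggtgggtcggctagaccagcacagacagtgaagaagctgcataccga
Arntl: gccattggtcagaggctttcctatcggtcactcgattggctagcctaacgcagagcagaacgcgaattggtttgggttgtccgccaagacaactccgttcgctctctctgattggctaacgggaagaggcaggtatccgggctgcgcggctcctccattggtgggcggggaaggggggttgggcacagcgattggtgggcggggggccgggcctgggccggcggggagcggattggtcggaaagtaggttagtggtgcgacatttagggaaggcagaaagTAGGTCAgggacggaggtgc

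Per1 had 1 E-box, 166 bases before its start, and Ciart had 3, the first of them 116 bases before the start. In Arntl the RORE core began at base 31 of the transcript. For Per1 and Arntl the table lists 2 starts, and positions were counted from 1 of them. An E-box stood in 4 of the 8 repressor genes with a window in the table (Per1, Cry1, Ciart and Bhlhe41) against 8.09% of all 27025 genes with a window, and in 2 of 7 output genes (Tef and Tspan4). Of these, Bhlhe41 was not called. Among tested genes with a window 10.7% had an E-box, with 12.6% of those called higher under DRF and 13.5% of those called lower. The RORE core was in 2.97% of all genes and here in Arntl and Nfil3. The D-box (TTATGTAA, on either strand), the site of the DBP family, was in 1.11% of all genes and in 1 repressor gene, Per3. Per2, Bhlhe40 and Wee1 had no window in the table. A match of letters is a description of the sequence, and binding was not measured here.

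Among the activators, Arntl was higher in every DRF library. Its values were 71.2, 56.9, 55.6 and 56.8 under DRF and 28.2, 29.7, 32.0 and 42.1 under NRF (log2 0.85 ± 0.19, adjusted p = 9.81e-04). Npas2, a paralogue of Clock and a partner of ARNTL, showed the widest ratio of the clock genes, with 3.35, 2.29, 2.23 and 2.69 under DRF and 0.113, 0.143, 0.112 and 0.179 under NRF, a 19.3-fold ratio of the means (log2 1.67 ± 0.17, adjusted p = 9.59e-10). These NRF values are low, and the pseudocount of 1 shrinks the log2 difference. Rora, which activates Arntl through the RORE, was modestly higher (226 ± 9.89 under DRF and 182 ± 10.5 under NRF, log2 0.32 ± 0.07, adjusted p = 0.00177). Clock itself was 119 ± 17.5 under DRF and 95.1 ± 6.84 under NRF and was not called (adjusted p = 0.179).

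The Period genes were lower under DRF. Per2 was 13.6, 11.6, 11.9 and 11.2 under DRF and 108, 105, 93.3 and 79.0 under NRF, a 7.97-fold gap with no overlap (log2 -2.89 ± 0.26, adjusted p = 4.41e-11). For Per3 the libraries gave 4.49, 6.12, 5.25 and 6.76 under DRF and 27.4, 20.8, 24.6 and 20.001 under NRF (log2 -1.86 ± 0.20, adjusted p = 2.57e-09). Per1 gave 7.60, 4.01, 3.14 and 2.90 under DRF and 5.74, 7.51, 10.5 and 12.0 under NRF, with overlap between the regimens (log2 -0.90 ± 0.27, adjusted p = 0.0171). The gene lost its call without DRF replicates 3 or 4 or NRF replicates 3 or 4 (adjusted p from 0.0622 to 0.0765). Ciart, a repressor of ARNTL-CLOCK whose window is shown above beside that of Per1, was lower under DRF as well. Its values were 0.275, 0.119, 0.0537 and 0.109 under DRF and 1.02, 0.996, 1.004 and 0.613 under NRF (log2 -0.74 ± 0.11, adjusted p = 3.69e-06).

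Cry1, the cryptochrome that holds the activators inactive late in the cycle, was 73.1 ± 16.9 under DRF and 123 ± 36.5 under NRF (log2 -0.73 ± 0.20, adjusted p = 0.00766), and this call was lost without DRF replicate 3 (adjusted p = 0.0513). Bhlhe40 (DEC1), which competes for E-boxes, was lower in all 4 DRF libraries (20.1 ± 3.89 under DRF and 44.2 ± 10.2 under NRF, log2 -1.08 ± 0.24, adjusted p = 0.00106). Cry2 was 36.5 ± 0.824 under DRF and 37.6 ± 2.93 under NRF and was not called (adjusted p = 0.86). Nr1d2 (REV-ERBβ) was 107 ± 20.2 under DRF and 83.5 ± 14.4 under NRF and was not called either (adjusted p = 0.149).

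Nr1d1 (REV-ERBα) went the other way from the Period genes. It read 11.8, 19.7, 28.1 and 27.9 under DRF and 3.19, 3.50, 6.49 and 1.83 under NRF, a 5.83-fold ratio with every DRF library above every NRF library (log2 2.28 ± 0.31, adjusted p = 5.57e-07). In the GENCODE annotation of GRCm38, 8.55% of its exon bases lie opposite exons of Thra. The strand setting of the counting is not given in the sources used here, so reads of such a pair cannot be told apart. Arntl and Nr1d1 were therefore both above their NRF levels at this hour.

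Output genes, which carry clock time to metabolism, were mostly lower under DRF. Wee1, a kinase that holds cells before mitosis, was 4.47, 4.43, 4.44 and 3.53 under DRF and 25.1, 28.0, 18.5 and 28.4 under NRF and did not overlap (log2 -2.30 ± 0.15, adjusted p = 2.36e-14). Usp2, a deubiquitinase, gave 6.30, 3.95, 2.54 and 2.42 under DRF and 18.8, 24.6, 17.8 and 22.6 under NRF (log2 -2.25 ± 0.26, adjusted p = 1.31e-08). The DBP family of D-box activators was lower in all 3 members, and Hlf had the largest log2 difference of the 3 (20.9 ± 1.44 under DRF and 51.9 ± 10.6 under NRF, log2 -1.25 ± 0.19, adjusted p = 3.52e-06). Dbp was 2.12 ± 0.879 under DRF and 4.64 ± 2.22 under NRF (log2 -0.82 ± 0.21, adjusted p = 0.00543). Tef was 31.4 ± 1.87 under DRF and 54.4 ± 9.14 under NRF (log2 -0.76 ± 0.18, adjusted p = 0.00247). The Dbp libraries overlapped, and its call was lost without NRF replicate 3 (adjusted p = 0.0677). Por, the electron donor of microsomal cytochromes P450, was also lower (108 ± 20.1 under DRF and 189 ± 28.6 under NRF, log2 -0.81 ± 0.11, adjusted p = 3.00e-07). The tetraspanin gene Tspan4 was lower as well (8.64 ± 1.05 under DRF and 17.3 ± 3.45 under NRF, log2 -0.91 ± 0.15, adjusted p = 2.35e-05). Nfil3, the repressor that competes with the DBP family, was the output gene that was higher, at 67.6, 52.0, 44.8 and 48.2 under DRF and 25.2, 30.3, 32.4 and 38.7 under NRF (log2 0.73 ± 0.16, adjusted p = 0.00128).

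**Figure D2:**
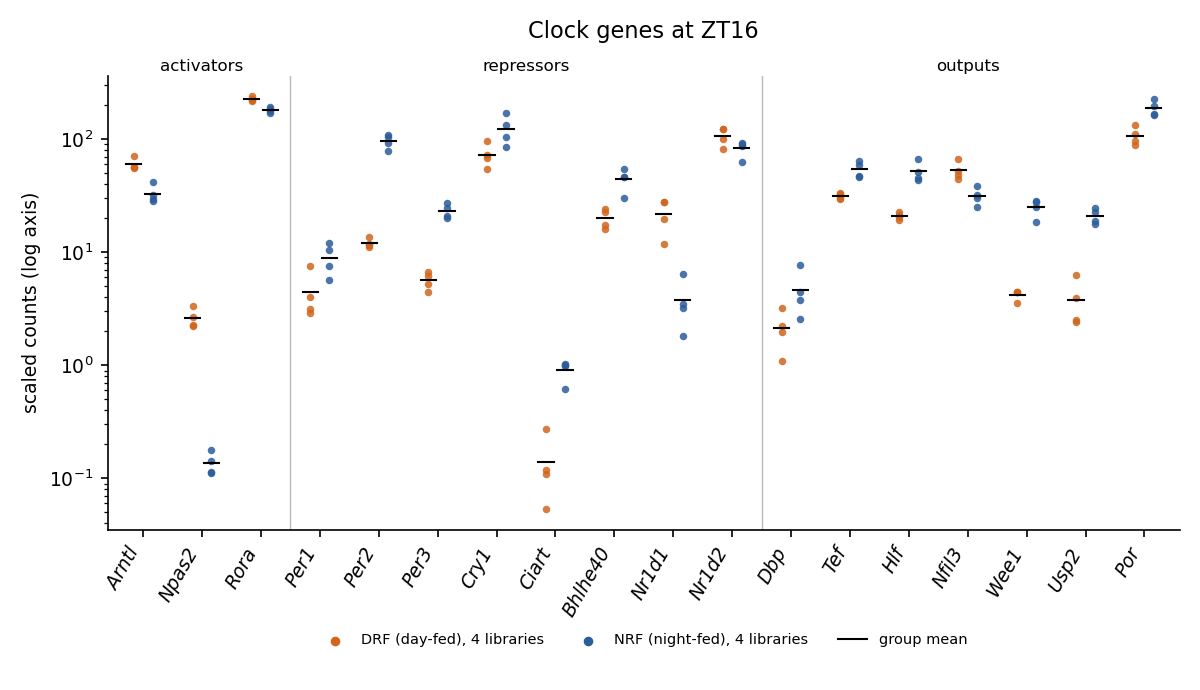
Clock genes at ZT16, in scaled counts on a log axis, with 1 point for each of the 4 DRF (orange) and 4 NRF (blue) libraries and a bar at each mean. Per2, Per3, Wee1 and Usp2 sit lower in every DRF library, Arntl, Npas2, Nr1d1 and Nfil3 higher in every one, and the points of Nr1d2, Per1, Cry1 and Dbp overlap.

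Several genes that insulin represses were higher in the day-fed mice at this hour. In the list of insulin and FOXO targets 4 of 12 were higher and 1 lower (median 0.01), and in the gluconeogenesis list 3 of 9 were higher and 1 lower (median 0.10). Over all genes 8.73% were higher, 6.42% lower and the median was -0.00029. Without DRF replicate 1 the gluconeogenesis list held 1 higher and 1 lower, and with only the 8 libraries in the fit the insulin list held 2 of each. Irs2, the insulin receptor substrate that FOXO1 activates in fasting, was 56.7, 62.8, 60.5 and 67.2 under DRF and 11.4, 15.5, 28.9 and 17.3 under NRF (log2 1.78 ± 0.28, adjusted p = 9.03e-06). The receptor gene Insr was 541 ± 17.2 under DRF and 416 ± 58.2 under NRF (log2 0.39 ± 0.08, adjusted p = 6.52e-04). The FOXO target Sesn1 was 32.3 ± 2.36 under DRF and 20.5 ± 1.94 under NRF (log2 0.63 ± 0.10, adjusted p = 1.12e-05). Both were higher in all 4 DRF libraries.

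Igfbp1, an insulin-repressed binding protein of IGF1, had the largest log2 difference in the list. It was 36.3, 30.1, 37.8 and 40.6 under DRF and 2.82, 6.23, 25.2 and 9.92 under NRF (log2 1.97 ± 0.62, adjusted p = 0.0232), so the DRF libraries were alike while the NRF libraries covered a range from 2.82 to 25.2. Its call was lost without DRF replicates 3 or 4 or NRF replicates 1 or 2 (adjusted p from 0.0513 to 0.122). The 1 member that was lower was Pik3r1, the regulatory subunit of phosphoinositide 3-kinase, with 94.2, 81.4, 76.3 and 81.9 under DRF and 174, 178, 185 and 174 under NRF (log2 -1.08 ± 0.15, adjusted p = 4.57e-07). Foxo1, Klf15 and Trib1 did not pass, at log2 differences of 0.15, 0.06 and -0.32.

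Pck1, the cytosolic enzyme that commits oxaloacetate to glucose, was 992, 647, 665 and 730.1 under DRF and 215, 204, 431 and 296 under NRF, and every DRF library was above every NRF library (log2 1.45 ± 0.36, adjusted p = 0.00367). G6pc, which releases free glucose, did not follow it: it was 261, 256, 343 and 364 under DRF and 176, 333, 297 and 367 under NRF (log2 0.10 ± 0.34, adjusted p = 0.896). Ppargc1a, a coactivator of the fasting programme, was 57.0 ± 8.75 under DRF and 38.8 ± 4.40 under NRF (log2 0.54 ± 0.15, adjusted p = 0.0109). Pcx, which makes oxaloacetate from pyruvate, was 180.2 ± 9.52 under DRF and 147 ± 11.7 under NRF (log2 0.29 ± 0.09, adjusted p = 0.0179). The call of Ppargc1a was lost without DRF replicate 1 (adjusted p = 0.0575) and that of Pcx without DRF replicate 1 or NRF replicate 1 (adjusted p from 0.056 to 0.092). Sik1, the kinase that restrains cAMP-driven gluconeogenic transcription, was lower, at 6.79, 7.21, 7.56 and 8.80 under DRF and 17.5, 17.4, 33.6 and 23.2 under NRF (log2 -1.43 ± 0.24, adjusted p = 2.30e-05).

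Of the 12 genes of glucose uptake and glycolysis 1 was higher and 2 were lower (median 0.04). Over all genes 15.1% were called. Pfkfb3, which makes the allosteric activator of phosphofructokinase, was lower (7.49 ± 2.35 under DRF and 15.8 ± 2.31 under NRF, log2 -1.02 ± 0.26, adjusted p = 0.00477). Its liver relative Pfkfb1 was the higher one (17.9 ± 2.80 under DRF and 13.9 ± 1.11 under NRF, log2 0.34 ± 0.12, adjusted p = 0.0455). This call was lost without DRF replicates 1 or 2 or NRF replicates 1, 3 or 4 (adjusted p from 0.0744 to 0.212). The pyruvate kinase gene Pklr was 62.0 ± 7.49 under DRF and 58.2 ± 10.6 under NRF and was not called (adjusted p = 0.852), with 22.0% of its exon bases opposite Hcn3.

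Glycogen genes differed in both directions. Gys2, the liver glycogen synthase, was 236, 231, 235 and 262 under DRF and 693, 864, 737 and 795 under NRF, a 3.21-fold difference with tight replicates (log2 -1.67 ± 0.11, adjusted p = 2.36e-14). Ppp1r3b, the phosphatase subunit that activates this synthase, was also lower (104, 63.8, 74.3 and 60.3 under DRF and 151, 155, 105 and 154 under NRF, log2 -0.91 ± 0.24, adjusted p = 0.00589). The related subunit Ppp1r3c was higher in every DRF library (28.1, 29.4, 29.9 and 30.2 under DRF and 8.97, 15.3, 13.8 and 24.3 under NRF, log2 0.95 ± 0.19, adjusted p = 2.15e-04). In all, 1 of 8 was higher and 3 were lower (median 0.15), beside 8.73% and 6.42% of all genes. With only the 8 libraries in the fit 0 were higher and 2 lower. Pygl, the phosphorylase, was not among the called genes (413 ± 36.1 under DRF and 346 ± 26.8 under NRF, adjusted p = 0.162).

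Genes of fat synthesis also differed in both directions. Of the 14 tested genes of de novo lipogenesis 3 were higher and 4 lower under DRF (median -0.11), beside 8.73% and 6.42% of all genes. Of the 7 calls 5 stayed whichever library was left out. Scd1 could not be rebuilt from the deposited values. Srebf1, the insulin-induced transcription factor of the pathway, was lower by 3.41-fold, at 84.3, 79.97, 126 and 131 under DRF and 320.2, 392, 324 and 397 under NRF (log2 -1.79 ± 0.20, adjusted p = 1.10e-08). Elovl6, which extends palmitate, was 30.2, 33.8, 36.8 and 49.5 under DRF and 98.9, 85.7, 104 and 129.5 under NRF (log2 -1.46 ± 0.32, adjusted p = 8.53e-04). Fads2, the delta-6 desaturase, was 391 ± 26.9 under DRF and 681 ± 72.0 under NRF (log2 -0.80 ± 0.11, adjusted p = 1.75e-06). Fasn, the fatty acid synthase, was 195, 224, 307 and 326 under DRF and 531, 613, 313 and 827 under NRF, with overlap (log2 -1.07 ± 0.38, adjusted p = 0.0476). The gene lost its call without DRF replicates 1, 2, 3 or 4 or NRF replicates 1, 2 or 4 (adjusted p from 0.0508 to 0.139).

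Acss2, which makes acetyl-CoA from acetate, and Elovl5, which extends polyunsaturated fatty acids, were instead higher in all 4 DRF libraries. Acss2 gave 332, 370.1, 437 and 545 under DRF and 107, 163, 89.9 and 169.6 under NRF (log2 1.69 ± 0.31, adjusted p = 1.10e-04). Elovl5 gave 151, 207, 177 and 221 under DRF and 72.3, 90.8, 77.0 and 101 under NRF (log2 1.13 ± 0.15, adjusted p = 2.96e-07). Acacb, the acetyl-CoA carboxylase whose malonyl-CoA limits fatty acid entry into mitochondria, was 364 ± 37.2 under DRF and 206 ± 36.1 under NRF (log2 0.83 ± 0.25, adjusted p = 0.0169), and this call was lost without NRF replicate 3 (adjusted p = 0.0795). Acly, Acaca and Thrsp did not pass, with log2 differences of 0.03, -0.25 and -1.17.

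Cholesterol genes leaned upward under DRF. Of 23 members 6 were higher and 1 lower (median 0.35), and 19 had a positive difference. Over all genes 8.73% were higher and 6.42% lower. Of coding genes with a mean of at least 1 scaled count 24.6% were called in either direction. The share called in this list was not far above that. Of its 7 calls 4 stayed whichever library was left out. Without NRF replicate 1 the higher calls numbered 3, as they did with only the 8 libraries or on the values as deposited. Hmgcs1, the first committed step, was 303, 270.1, 328 and 339 under DRF and 114, 123, 116 and 179 under NRF (log2 1.24 ± 0.26, adjusted p = 5.75e-04). Further along the route, Mvk (mevalonate kinase) was 28.9 ± 2.73 under DRF and 14.97 ± 3.77 under NRF (log2 0.93 ± 0.20, adjusted p = 6.61e-04). Fdps (farnesyl diphosphate synthase) was 82.5 ± 9.41 under DRF and 40.6 ± 9.58 under NRF (log2 1.03 ± 0.25, adjusted p = 0.00294), and 26.7% of its exon bases overlap Gm43738 on the same strand. The calls of Nsdhl, Ebp and Dhcr7, late enzymes of the route with log2 differences of 0.60, 0.35 and 0.66, were each lost when 1 library was left out. For Nsdhl that held without DRF replicates 1, 2 or 4 or NRF replicates 1, 2 or 4 (adjusted p from 0.0529 to 0.234). For Ebp it held without NRF replicate 1 (adjusted p = 0.0534), and for Dhcr7 without NRF replicate 1 (adjusted p = 0.118).

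Among the 17 genes of triglyceride synthesis and lipid droplets 4 were higher and 2 lower (median 0.24). For all genes the shares were 8.73% and 6.42%. Lpin2, a phosphatidate phosphatase, was 64.2 ± 3.51 under DRF and 40.9 ± 5.62 under NRF (log2 0.65 ± 0.12, adjusted p = 6.75e-05). Mogat1, a monoacylglycerol acyltransferase, was 1.11 ± 0.243 under DRF and 0.403 ± 0.175 under NRF (log2 0.59 ± 0.14, adjusted p = 0.00239). Lpin1, the relative of Lpin2, was 277, 81.5, 89.4 and 106 under DRF and 42.8, 81.9, 42.8 and 66.5 under NRF, where DRF replicate 1 was far above the other 3 (log2 1.09 ± 0.30, adjusted p = 0.00879). Its call was lost without DRF replicate 1 (adjusted p = 0.107). Mgll, the monoacylglycerol lipase, was lower (531, 516, 445 and 446 under DRF and 952, 991, 794 and 999 under NRF, log2 -0.94 ± 0.16, adjusted p = 2.73e-05). G0s2, an inhibitor of adipose triglyceride lipase, was lower as well (6.40 ± 3.10 under DRF and 15.9 ± 2.69 under NRF, log2 -1.26 ± 0.38, adjusted p = 0.0174). This call was lost without DRF replicates 1 or 4 (adjusted p from 0.053 to 0.0667). Cideb, a lipid droplet protein, was 81.9 ± 2.08 under DRF and 67.6 ± 8.84 under NRF (log2 0.28 ± 0.08, adjusted p = 0.00932). The gene lost its call without NRF replicate 1 (adjusted p = 0.0997). In the annotation, 76.3% of its exon bases lie opposite those of Nop9.

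Of the 24 tested genes of fatty acid oxidation and ketogenesis 6 were higher and 1 lower (median 0.25). The share called in either direction was 15.1% over all genes and 24.6% over coding genes with a mean of at least 1 scaled count. Those that stayed called whichever library was left out were Angptl4 and Cd36. Angptl4, a fasting-induced inhibitor of lipoprotein lipase, was 19.3, 16.8, 9.12 and 13.6 under DRF and 3.60, 4.13, 4.76 and 4.47 under NRF (log2 1.54 ± 0.32, adjusted p = 5.86e-04). Cd36, a fatty acid transporter, was 695, 706, 552 and 609.8 under DRF and 359, 327, 317 and 368 under NRF (log2 0.90 ± 0.18, adjusted p = 3.73e-04). In both genes the regimens were clearly separate.

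The remaining oxidation genes were weaker. Cyp4a14, a fatty acid omega-hydroxylase with close relatives in its cluster, was 721 ± 95.1 under DRF and 325 ± 81.0 under NRF (log2 1.18 ± 0.36, adjusted p = 0.0191) and lost its call without DRF replicate 1 or NRF replicate 2 (adjusted p from 0.0528 to 0.0665). Ehhadh, of peroxisomal oxidation, was 849 ± 31.8 under DRF and 577 ± 100.3 under NRF (log2 0.58 ± 0.16, adjusted p = 0.00957) and lost its call without NRF replicate 3 (adjusted p = 0.0786). Acadm, the medium-chain dehydrogenase, was 266 ± 16.2 under DRF and 204 ± 6.20 under NRF (log2 0.38 ± 0.12, adjusted p = 0.0208) and lost it without DRF replicate 1 or NRF replicate 1 (adjusted p from 0.0503 to 0.0711). Cpt1a, the carnitine transferase that admits fatty acids to mitochondria, was the lower member (113 ± 10.5 under DRF and 151 ± 18.7 under NRF, log2 -0.41 ± 0.14, adjusted p = 0.0321). That call did not hold without DRF replicates 1, 3 or 4 or NRF replicates 2 or 3 (adjusted p from 0.0518 to 0.142). Ppara and Pdk4 were not called (adjusted p = 0.272 and 0.269).

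Urea cycle and amino acid breakdown was the list with the most calls of which all were upward. Of 23 members 13 were higher under DRF and 0 lower (median 0.42, against -0.00029 over all genes), and 8 of the 13 stayed called whichever library was left out. Without NRF replicate 3 the count was 8, with only the 8 libraries in the fit 7 and on the values as deposited 5. The share higher among all genes tested was 8.73%. Got1, the cytosolic aspartate transaminase, was 452, 363, 277 and 362 under DRF and 93.6, 139, 101 and 156 under NRF (log2 1.57 ± 0.22, adjusted p = 9.79e-07). Sds, serine dehydratase, was 189, 163, 129 and 149 under DRF and 59.4, 91.0, 41.7 and 57.9 under NRF (log2 1.36 ± 0.21, adjusted p = 7.37e-06), and 29.6% of its exon bases lie opposite those of Plbd2. Oat, ornithine aminotransferase, was 2037, 1617, 1812 and 1913 under DRF and 731, 1091, 770 and 1257 under NRF (log2 0.97 ± 0.20, adjusted p = 3.58e-04). In each of these the lowest DRF library was above the highest NRF library.

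Tdo2, which opens the tryptophan ring, was 1399.9 ± 199 under DRF and 868 ± 123 under NRF (log2 0.69 ± 0.15, adjusted p = 0.00103). Agxt, of glyoxylate and serine metabolism, was 213 ± 26.9 under DRF and 118 ± 25.4 under NRF (log2 0.85 ± 0.15, adjusted p = 7.06e-05). Hgd, of tyrosine breakdown, was 2019 ± 119 under DRF and 1508 ± 167 under NRF (log2 0.42 ± 0.10, adjusted p = 0.00308). In the urea cycle itself Arg1, which releases urea, was 1408 ± 84.3 under DRF and 939 ± 172 under NRF (log2 0.60 ± 0.11, adjusted p = 6.61e-05). The ornithine transporter Slc25a15 was 454 ± 31.2 under DRF and 314 ± 72.3 under NRF (log2 0.55 ± 0.12, adjusted p = 0.001). Cps1, its first enzyme, was 34223, 26884, 28096 and 29307 under DRF and 17909, 23644, 16387 and 24467 under NRF (log2 0.54 ± 0.19, adjusted p = 0.0412). This call was lost without DRF replicates 1, 3 or 4 or NRF replicates 1 or 3 (adjusted p from 0.0633 to 0.16). Ass1, argininosuccinate synthase, was 14174 ± 1647 under DRF and 9153 ± 2659 under NRF (log2 0.67 ± 0.21, adjusted p = 0.0269) and lost its call without DRF replicates 1 or 4 or NRF replicates 1 or 3 (adjusted p from 0.0702 to 0.117). Otc and Asl did not pass (log2 0.20 and 0.18), nor did the glucagon- and glucocorticoid-induced Tat (log2 -0.15).

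In bile acid metabolism 6 of 14 genes were higher under DRF and 2 lower (median 0.15), beside 8.73% and 6.42% of all genes. Of the 8 calls 5 stayed whichever library was left out. With only the 8 libraries in the fit 3 were higher and 1 lower. Cyp7a1, the rate-limiting enzyme of bile acid synthesis, was lower, with 178, 131, 44.0 and 91.6 under DRF and 169.5, 304, 237 and 285 under NRF (log2 -1.29 ± 0.38, adjusted p = 0.0148). DRF replicate 1 reached the NRF range, and the call was lost without DRF replicate 3 (adjusted p = 0.123). Nr0b2 (SHP), the repressor of Cyp7a1 that bile acids induce, was higher in all 4 DRF libraries (6.06, 8.37, 14.7 and 10.5 under DRF and 3.49, 2.19, 3.83 and 2.08 under NRF, log2 1.45 ± 0.37, adjusted p = 0.00442).

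Abcb11, the pump that exports bile salts into bile, was 813, 852, 951 and 1032 under DRF and 439, 449, 370.1 and 452 under NRF, a clear separation (log2 1.09 ± 0.10, adjusted p = 4.41e-11). Cyp8b1, which sets the share of cholic acid, was 59.0 ± 14.2 under DRF and 30.8 ± 9.29 under NRF (log2 0.94 ± 0.23, adjusted p = 0.003). Hsd3b7, the second enzyme of the route, was 57.1 ± 4.24 under DRF and 19.0 ± 6.93 under NRF (log2 1.60 ± 0.27, adjusted p = 2.14e-05). For Hsd3b7, 62.0% of the exon bases overlap another annotated gene on the same strand, so part of its counts may belong to that gene. Abcg5, of the sterol exporter into bile, was the other lower member (88.3 ± 10.7 under DRF and 151 ± 13.7 under NRF, log2 -0.77 ± 0.14, adjusted p = 9.16e-05).

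**Figure D3:**
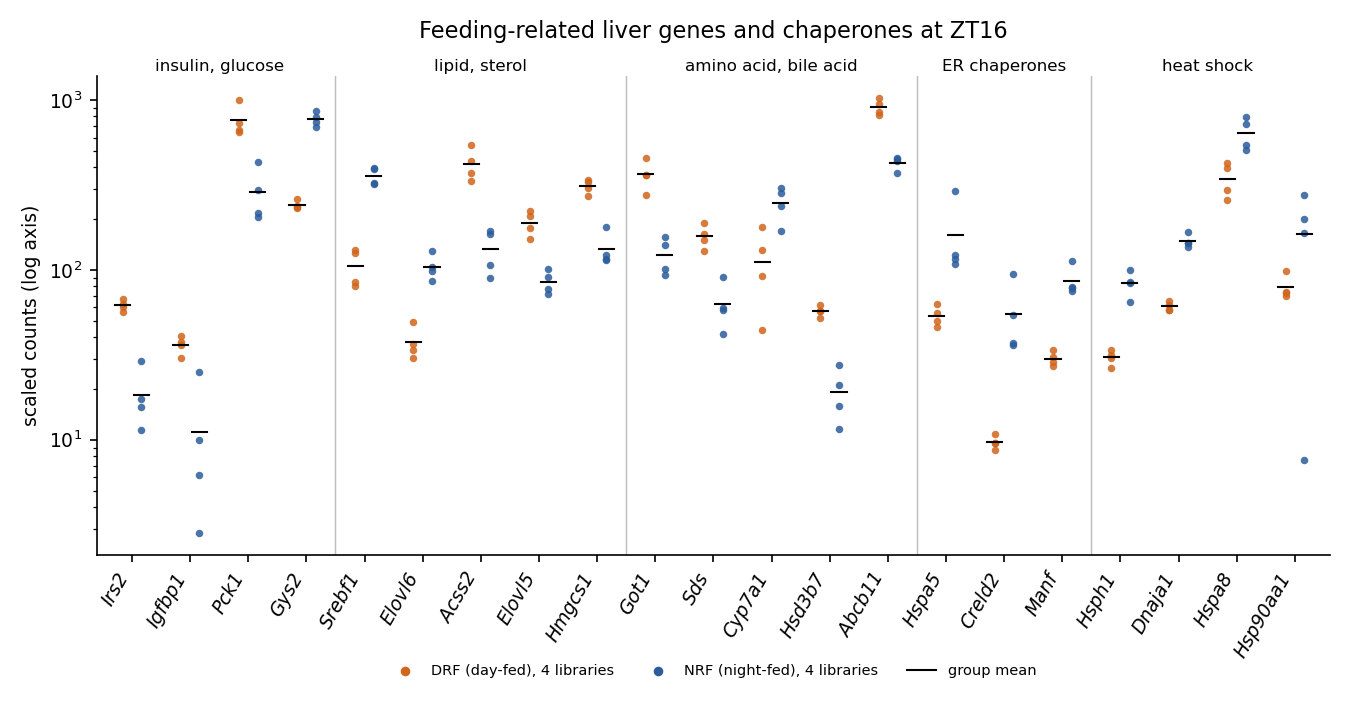
Metabolic genes and chaperones at ZT16, in scaled counts on a log axis, with 1 point for each of the 4 DRF (orange) and 4 NRF (blue) libraries and a bar at each mean. Irs2, Pck1, Acss2, Elovl5, Hmgcs1, Got1 and Abcb11 are higher in every DRF library, Gys2, Srebf1 and the ER chaperones lower, and a single NRF point of Hsp90aa1 lies at 7.55, far under the other 3.

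Chaperone genes of the ER and of the cytosol were lower under DRF, with no call in the other direction. Of 20 genes of ER chaperones and the unfolded protein response 12 were lower and 0 higher (median -0.40), and of 18 cytosolic heat shock genes 14 were lower and 0 higher (median -0.74), with a negative difference in 18 of 18. Among these, 10 of the 12 and 12 of the 14 stayed called whichever library was left out, and with only the 8 libraries in the fit 7 and 8 were called. The share lower among all genes tested was 6.42%.

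Windows of the same kind are printed for Hspa5 and Creld2, which hold the ER stress response element (ERSE: CCAAT, 9 bases of any kind, CCACG, on either strand), the known site of ATF6 with NF-Y, and for Hsph1, which holds a heat shock element (GAA, 2 bases of any kind, TTC, 2 bases of any kind, GAA, or its reverse complement), the site of HSF1. Hspa5 lies on the plus strand (chr2:34771840-34772139), Creld2 on the plus strand (chr15:88819396-88819695) and Hsph1 on the minus strand (chr5:149636287-149636586), all in GRCm38.p6 from RefSeq, and capitals mark the matches.
Hspa5: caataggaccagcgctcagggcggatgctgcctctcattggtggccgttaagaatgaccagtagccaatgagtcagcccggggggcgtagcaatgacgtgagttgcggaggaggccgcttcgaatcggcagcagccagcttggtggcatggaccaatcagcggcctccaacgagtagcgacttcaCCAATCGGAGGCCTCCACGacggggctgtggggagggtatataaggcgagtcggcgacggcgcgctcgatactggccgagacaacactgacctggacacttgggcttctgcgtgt
Creld2: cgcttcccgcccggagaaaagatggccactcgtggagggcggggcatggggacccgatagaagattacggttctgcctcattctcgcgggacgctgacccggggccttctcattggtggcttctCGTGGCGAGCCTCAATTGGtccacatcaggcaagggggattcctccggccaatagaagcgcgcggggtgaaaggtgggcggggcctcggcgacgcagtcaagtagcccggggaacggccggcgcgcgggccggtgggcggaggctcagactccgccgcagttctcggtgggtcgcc
Hsph1: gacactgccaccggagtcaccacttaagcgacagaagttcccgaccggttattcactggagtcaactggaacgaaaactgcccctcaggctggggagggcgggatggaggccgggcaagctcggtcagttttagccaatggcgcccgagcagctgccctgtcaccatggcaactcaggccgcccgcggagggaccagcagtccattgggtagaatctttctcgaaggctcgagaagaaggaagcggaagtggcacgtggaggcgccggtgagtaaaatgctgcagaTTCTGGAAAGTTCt

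The element began 65 bases before the start of Hspa5 and 126 before that of Creld2, where it reads on the other strand, and at base 37 of the Hsph1 transcript, counted from 1 of its 2 listed starts. The ERSE was in 9 of the 17 ER genes with a window (Hspa5, Hsp90b1, Pdia6, Calr, Canx, Dnajc3, Creld2, Derl3 and Syvn1) and in 37 of all 27025 genes, or 0.137%. The heat shock element was in 4 of 14 heat shock genes (Hsph1, Hspd1, Hspe1 and Chordc1) and in 0.662% of all genes. Manf, Hyou1 and Hspa8 had no window. Of the 9 ER genes with an ERSE, Pdia6, Calr, Canx and Derl3 were not called, at log2 differences of -0.23, -0.05, -0.08 and -0.03. Of the 4 heat shock genes with the heat shock element, Hsph1 and Chordc1 were lower, and Hspd1 and Hspe1 were not called.

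Hspa5 (BiP), the main ER chaperone, was 55.8, 45.9, 50.2 and 62.7 under DRF and 109, 123, 289.6 and 116 under NRF (log2 -1.43 ± 0.24, adjusted p = 3.12e-05). Creld2, an ER protein of the stress response, was 9.55, 8.73, 9.63 and 10.8 under DRF and 36.0, 54.0, 93.9 and 37.3 under NRF (log2 -2.29 ± 0.33, adjusted p = 2.03e-06). Manf, a secreted ER stress factor, was 28.7, 27.2, 30.6 and 33.8 under DRF and 75.0, 78.5, 113 and 78.9 under NRF (log2 -1.48 ± 0.23, adjusted p = 6.21e-06). All 4 DRF libraries were low and alike in these genes, and NRF replicate 3 was the highest of the NRF libraries in each. Without that library the adjusted p of each was 7.80e-04, 5.32e-05 and 1.21e-04.

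The ER co-chaperone Dnajb9 was 16.1 ± 0.694 under DRF and 36.4 ± 5.33 under NRF (log2 -1.12 ± 0.22, adjusted p = 2.60e-04). Hsp90b1 (GRP94) was 333 ± 24.2 under DRF and 564 ± 166 under NRF (log2 -0.72 ± 0.15, adjusted p = 4.01e-04). Xbp1, which encodes a transcription factor of the response, was 35.6 ± 1.87 under DRF and 47.5 ± 6.25 under NRF (log2 -0.40 ± 0.10, adjusted p = 0.00588). Syvn1, a ubiquitin ligase of ER-associated degradation, was 10.6 ± 2.43 under DRF and 21.5 ± 9.04 under NRF (log2 -0.91 ± 0.24, adjusted p = 0.00602). Pdia3, a disulfide isomerase, was 411 ± 23.8 under DRF and 548 ± 153 under NRF (log2 -0.38 ± 0.13, adjusted p = 0.041). The call of Syvn1 was lost without NRF replicate 3 (adjusted p = 0.0674) and that of Pdia3 without DRF replicates 1, 2, 3 or 4 or NRF replicate 3 (adjusted p from 0.0514 to 0.341). The sensor gene Atf6 was 362 ± 26.0 under DRF and 366 ± 21.4 under NRF and was not called (adjusted p = 0.935).

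Among heat shock genes, Hsph1 (HSP110) was 31.7, 33.9, 26.5 and 30.5 under DRF and 83.9, 99.5, 85.2 and 64.6 under NRF (log2 -1.40 ± 0.31, adjusted p = 0.00116). Dnaja1, an HSP40 co-chaperone, was 65.7, 62.3, 57.8 and 58.3 under DRF and 143, 167, 144 and 136 under NRF (log2 -1.26 ± 0.15, adjusted p = 2.07e-08). Hspa8, the constitutive HSP70, was 398, 424, 257 and 296 under DRF and 542, 795, 725 and 508 under NRF (log2 -0.90 ± 0.23, adjusted p = 0.00503). Bag3, an HSP70 nucleotide exchange factor, was 34.9 ± 6.36 under DRF and 81.4 ± 15.1 under NRF (log2 -1.20 ± 0.22, adjusted p = 7.39e-05). Chordc1, an HSP90 co-chaperone, was 12.7 ± 0.747 under DRF and 28.7 ± 4.85 under NRF (log2 -1.10 ± 0.17, adjusted p = 3.39e-06). In all of these the regimens were separate.

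The inducible HSP70 genes Hspa1a and Hspa1b are nearly identical in sequence, so the split of counts between them is uncertain. Hspa1b was 2.48, 3.43, 1.94 and 2.15 under DRF and 11.7, 13.2, 7.53 and 3.85 under NRF (log2 -1.43 ± 0.38, adjusted p = 0.00714). Hspa1a was 0.548 ± 0.162 under DRF and 1.73 ± 0.767 under NRF (log2 -0.78 ± 0.22, adjusted p = 0.00949). That call did not hold without NRF replicate 2 (adjusted p = 0.0528). Hsp90aa1, the inducible HSP90, was not called, with 73.0, 73.8, 69.8 and 98.7 under DRF and 276, 199, 7.55 and 164 under NRF (log2 -0.25 ± 0.49, adjusted p = 0.808). NRF replicate 3 was the exception in this gene, and without it the adjusted p was 1.44e-04 at a log2 difference of -1.40. Hsf1, which encodes the heat shock factor, was 4.44 ± 0.395 under DRF and 4.96 ± 0.876 under NRF (adjusted p = 0.633). Of the cold-inducible RNA-binding protein genes, Rbm3 was lower (2.34 ± 0.247 under DRF and 3.44 ± 0.572 under NRF, log2 -0.40 ± 0.14, adjusted p = 0.0456). This call was lost without DRF replicates 1, 2, 3 or 4 or NRF replicates 1 or 3 (adjusted p from 0.0558 to 0.186), and Cirbp was 1.16 ± 0.328 under DRF and 0.760 ± 0.104 under NRF (adjusted p = 0.35).

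The integrated stress response, which ATF4 drives when amino acids are short, went mostly the other way from the chaperones. Of 15 genes 6 were higher under DRF and 1 lower (median 0.21), beside 8.73% and 6.42% of all genes. Of the 7 calls 4 stayed whichever library was left out, and 10 of the 15 genes reached a mean of 1 scaled count. Trib3, a pseudokinase that binds AKT, was 4.73, 4.84, 8.52 and 5.69 under DRF and 0.979, 0.932, 0.707 and 0.626 under NRF (log2 1.91 ± 0.27, adjusted p = 8.43e-07). Atf5, a transcription factor made under this response, was 79.3, 85.7, 79.1 and 90.4 under DRF and 28.0, 29.0, 41.2 and 39.2 under NRF (log2 1.28 ± 0.21, adjusted p = 1.15e-05). Both were separate in all 8 libraries. Chac1, which degrades glutathione, was 0.823 ± 0.344 under DRF and 0.138 ± 0.0924 under NRF (log2 0.67 ± 0.14, adjusted p = 4.70e-04). Sesn2, a leucine sensor that restrains mTORC1, was 11.1 ± 0.799 under DRF and 6.07 ± 0.931 under NRF (log2 0.78 ± 0.13, adjusted p = 3.53e-05). Atf4 itself was 8.70 ± 0.945 under DRF and 10.7 ± 1.67 under NRF (adjusted p = 0.329).

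Asns (asparagine synthetase) was higher at a very low level (0.481 ± 0.151 under DRF and 0.173 ± 0.102 under NRF, log2 0.33). Phgdh (serine synthesis) was higher as well (0.515 ± 0.241 under DRF and 0.160 ± 0.125 under NRF, log2 0.38). The call of Asns was lost without DRF replicate 3 (adjusted p = 0.0666). That of Phgdh was lost without DRF replicates 1 or 4 or NRF replicates 1, 3 or 4 (adjusted p from 0.062 to 0.168). Atf3, another stress factor, was the lower member (4.18 ± 1.09 under DRF and 10.2 ± 3.31 under NRF, log2 -1.09 ± 0.32, adjusted p = 0.017). Its call was lost without DRF replicate 1 or NRF replicate 1 (adjusted p from 0.0575 to 0.079).

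Genes of ribosome assembly were lower under DRF. Of 22 members 12 were lower and 0 higher (median -0.34), 21 had a negative difference, and 9 of the 12 stayed called whichever library was left out. With only the 8 libraries 7 were called. These counts stand beside 6.42% of all genes called lower. Nolc1, a nucleolar chaperone of small nucleolar particles, was 3.98, 4.19, 2.82 and 3.38 under DRF and 7.27, 8.37, 11.6 and 8.34 under NRF (log2 -1.10 ± 0.18, adjusted p = 1.17e-05). Nop58, a core protein of those particles, was 2.24, 3.22, 3.34 and 3.14 under DRF and 6.62, 6.55, 9.07 and 6.31 under NRF (log2 -1.03 ± 0.16, adjusted p = 3.91e-06). The regimens did not overlap in either gene. Polr1a, the largest subunit of RNA polymerase I, was 29.4 ± 3.20 under DRF and 42.5 ± 3.05 under NRF (log2 -0.52 ± 0.10, adjusted p = 3.46e-04). Ncl (nucleolin) was 17.6 ± 0.478 under DRF and 28.7 ± 9.77 under NRF (log2 -0.63 ± 0.14, adjusted p = 0.00129), with its highest value in NRF replicate 3. Myc, which drives this programme in growing cells, was 0.586 ± 0.312 under DRF and 1.29 ± 0.586 under NRF (log2 -0.51 ± 0.18, adjusted p = 0.0461). The gene lost its call without DRF replicates 2, 3 or 4 or NRF replicates 2, 3 or 4 (adjusted p from 0.0742 to 0.186).

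The ribosomal proteins themselves did not follow. Of 20 tested 4 were higher under DRF and 0 lower (median 0.19), a share near the 15.1% of all genes, and none of the 4 stayed called whichever library was left out. Rpl3 was 323 ± 22.3 under DRF and 253 ± 41.8 under NRF (log2 0.37 ± 0.12, adjusted p = 0.0254). Its call was lost without DRF replicates 3 or 4 or NRF replicates 1 or 3 (adjusted p from 0.0744 to 0.157).

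**Figure D4:**
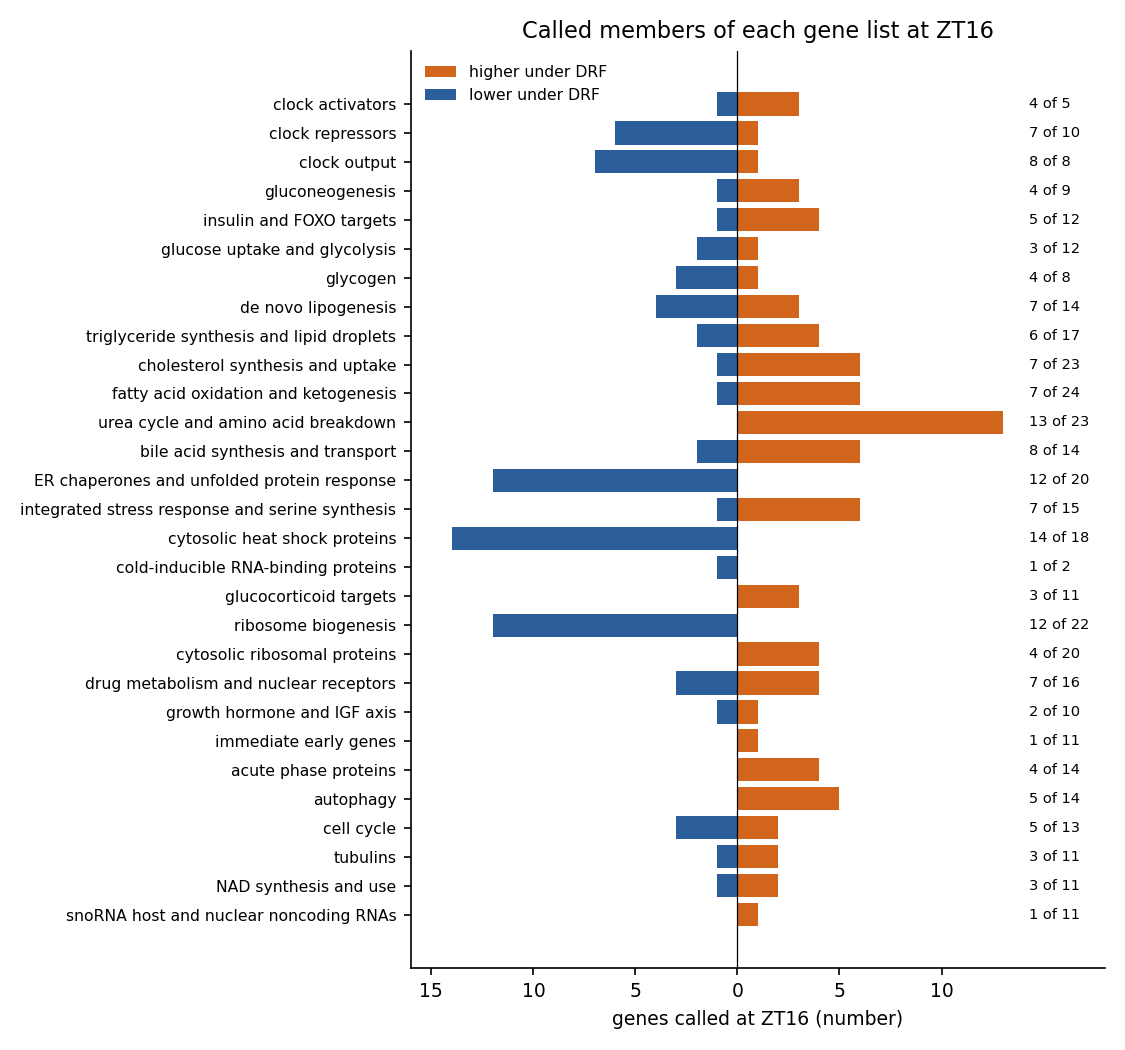
Number of genes of each list called higher (orange, to the right) or lower (blue, to the left) under DRF at ZT16, with the number called of the number tested at the right. All calls are lower in the ER chaperone (12), heat shock (14) and ribosome biogenesis (12) lists and all are higher in the urea cycle and amino acid list (13).

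Autophagy genes were higher where they were called, 5 of 14 (median 0.26), beside 8.73% of all genes. Sqstm1, the cargo receptor p62, was 204, 198, 202 and 205 under DRF and 124, 138, 142 and 154 under NRF (log2 0.54 ± 0.08, adjusted p = 1.68e-06). Ulk1, the kinase that starts autophagy, was 54.6, 52.2, 48.2 and 60.5 under DRF and 32.1, 36.5, 36.1 and 29.6 under NRF (log2 0.67 ± 0.13, adjusted p = 2.36e-04). Atg14, of the lipid kinase complex that follows it, was 15.9, 16.7, 15.5 and 15.5 under DRF and 11.1, 11.02, 10.3 and 10.2 under NRF (log2 0.53 ± 0.10, adjusted p = 7.29e-05). No DRF library overlapped an NRF library in these 3 genes.

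Of 13 cell cycle genes 2 were higher and 3 lower (median -0.12), beside 8.73% and 6.42% of all genes. Ccnd1 (cyclin D1), which admits cells to the cycle, was 16.1, 14.9, 18.2 and 16.7 under DRF and 36.1, 45.1, 40.3 and 54.7 under NRF (log2 -1.35 ± 0.28, adjusted p = 4.76e-04), and 23.4% of its exon bases lie opposite another gene. Its partner later in that phase, cyclin E, was lower in both genes. Ccne1 was 0.123 ± 0.0864 under DRF and 0.470 ± 0.189 under NRF (log2 -0.38 ± 0.09, adjusted p = 0.00336). Ccne2 was 2.49 ± 0.435 under DRF and 5.05 ± 1.06 under NRF (log2 -0.78 ± 0.15, adjusted p = 2.15e-04). The inhibitor Cdkn1a (p21) was 5.68, 1.30, 1.38 and 0.935 under DRF and 0.465, 0.848, 0.174 and 1.06 under NRF, with DRF replicate 1 apart from all others (log2 0.86 ± 0.24, adjusted p = 0.0108). The call was lost without DRF replicate 1 or NRF replicate 3 (adjusted p from 0.0669 to 0.153). The proliferation marker Mki67 was not called (adjusted p = 0.539).

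Nampt, the rate-limiting enzyme of NAD salvage and a known clock output, was lower in every DRF library, at 31.1, 26.8, 22.7 and 24.8 under DRF and 57.8, 58.7, 53.6 and 54.1 under NRF (log2 -1.07 ± 0.10, adjusted p = 4.18e-10). In its list of 11, 2 were higher and 1 lower (median 0.08), beside 15.1% of all genes called in either direction. The higher genes were Naprt and Sirt3, and without NRF replicate 3 neither was called. Glucocorticoid targets gave 3 higher and 0 lower of 11 (median 0.11), beside 8.73% and 6.42% of all genes. Without DRF replicate 1 they gave 2 higher and 1 lower (median -0.04). Klf9 was 30.5 ± 3.78 under DRF and 14.5 ± 2.38 under NRF (log2 1.03 ± 0.15, adjusted p = 1.51e-06). The metallothionein Mt2 was 25.8, 25.1, 10.5 and 6.99 under DRF and 3.09, 4.87, 2.69 and 2.47 under NRF (log2 1.93 ± 0.50, adjusted p = 0.00565), a wide spread among the DRF libraries, with 73.5% of its exon bases opposite those of a predicted gene. Fkbp5 and Tsc22d3 of the same list did not pass (log2 0.11 and -0.50).

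In drug metabolism 4 of 16 genes were higher and 3 lower (median -0.08), beside 8.73% and 6.42% of all genes. The higher calls numbered 1 without DRF replicate 1 or 3 and 2 without DRF replicate 4 or NRF replicates 1 or 3. Alas1, the rate-limiting enzyme of heme synthesis, was 46.4, 30.8, 18.1 and 24.7 under DRF and 196, 251, 167 and 175 under NRF (log2 -2.74 ± 0.37, adjusted p = 4.02e-07), a 6.57-fold ratio. Cyp2a5, a coumarin hydroxylase with close relatives, was 494 ± 69.1 under DRF and 1305 ± 207 under NRF (log2 -1.40 ± 0.26, adjusted p = 1.13e-04). Cyp2b10, the classic target of the receptor CAR, was higher (1108, 629.8, 586 and 395 under DRF and 222, 329, 118 and 289 under NRF, log2 1.501 ± 0.38, adjusted p = 0.00431), with a wide range among DRF libraries and all of them above the NRF ones.

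The last lists held fewer calls. Acute phase genes were higher in 4 of 14 and lower in 0 (median 0.25), among them genes of the fibrinogen chains. That is beside 8.73% of all genes. Without NRF replicate 1 the count was 2 (median 0.10), with only the 8 libraries it was 2 and on the values as deposited 0. Fga was 1824 ± 111 under DRF and 1288 ± 220.4 under NRF (log2 0.52 ± 0.12, adjusted p = 0.00154). Fgg was 1852 ± 126 under DRF and 1308 ± 158 under NRF (log2 0.51 ± 0.10, adjusted p = 4.00e-04). In the growth hormone and IGF axis 1 of 10 was higher and 1 lower (median -0.42), and the higher one was Stat5b, the transducer of growth hormone (254 ± 15.5 under DRF and 153 ± 22.4 under NRF, log2 0.74 ± 0.11, adjusted p = 1.71e-06). Of 11 immediate early genes 1 was higher (median 0.16), the Krüppel-like factor gene Klf6 (7.84 ± 0.682 under DRF and 4.94 ± 0.359 under NRF, log2 0.57 ± 0.09, adjusted p = 7.16e-06). Of 11 tubulins 2 were higher and 1 lower (median -0.24). With only the 8 libraries none was called, without NRF replicate 1 or 3 the counts were 1 and 2, and after the length correction 2 and 4. Of 11 host genes of small nucleolar RNAs and nuclear noncoding RNAs 1 was higher (median -0.05). For the growth hormone axis, the immediate early genes, the tubulins and the snoRNA hosts, 2 of 10, 1 of 11, 3 of 11 and 1 of 11 called members stand beside 15.1% of all genes, and no more is read from them.

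The largest differences were taken over all genes rather than the lists, as the 10 in each direction among genes that were called, did not overlap and reached a mean of 5 scaled counts in 1 regimen. The rule used the differences themselves, so the values describe those genes and are no further evidence. Higher under DRF were Depp1, Sult2a3, Gm3776, Rgs16, Nr1d1, Gm44787, Rnf125, Igfbp1, Camk1d and Gsta1. Lower were Tsku, Noct, Per2, Alas1, Serpina1e, Nrep, Tfrc, Slco1a1, Wee1 and Creld2. Coordinates are those of GENCODE vM21 (GRCm38).

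Depp1 (ENSMUSG00000048489, chromosome 6, 116650609 to 116652794), a FOXO target tied to autophagy, had the largest difference upward, with 37.6, 39.6, 49.0 and 34.9 under DRF and 2.97, 2.11, 7.02 and 3.57 under NRF (log2 3.15 ± 0.48, adjusted p = 4.78e-06), a 10.3-fold ratio. Rgs16 (ENSMUSG00000026475, chromosome 1, 153740349 to 153745468), which shortens G protein signals, was 9.45, 11.9, 15.2 and 13.7 under DRF and 1.30, 1.95, 1.12 and 0.728 under NRF (log2 2.58 ± 0.48, adjusted p = 1.08e-04). Camk1d (ENSMUSG00000039145, chromosome 2, 5293457 to 5714515), a calcium- and calmodulin-dependent kinase, was 312, 343, 304 and 378 under DRF and 71.5, 90.2, 75.8 and 107 under NRF (log2 1.96 ± 0.13, adjusted p = 2.36e-14). The regimens are far apart in all 3 genes. Rnf125 (ENSMUSG00000033107), a ubiquitin ligase, was 99.8, 98.4, 97.3 and 104 under DRF and 13.8, 17.1, 31.2 and 35.6 under NRF (log2 2.09 ± 0.24, adjusted p = 1.22e-08), with DRF libraries close to each other.

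Sult2a3 (ENSMUSG00000074375, chromosome 7, 14067446 to 14123044), a hydroxysteroid sulfotransferase, was 49.6, 49.7, 31.0 and 36.6 under DRF and 11.3, 7.51, 0.731 and 4.57 under NRF (log2 2.90 ± 0.67, adjusted p = 0.00188). Gsta1, a glutathione transferase, and the predicted gene Gm3776 lie near each other on chromosome 9, at 78230656 to 78242684 and 78257129 to 78269166. Gm3776 was 12.1, 12.4, 27.6 and 18.5 under DRF and 2.05, 1.05, 0 and 4.84 under NRF (log2 2.85 ± 0.61, adjusted p = 7.24e-04). Gsta1 was 33.6, 16.6, 35.0 and 25.7 under DRF and 3.38, 10.5, 5.37 and 7.34 under NRF (log2 1.95 ± 0.62, adjusted p = 0.0252). All 3 belong to families of close copies, where the assignment of reads is uncertain, and the call of Gsta1 was lost without DRF replicates 1 or 3 or NRF replicates 1 or 3 (adjusted p from 0.0624 to 0.0892). These differences were not confined to ZT16. For Sult2a3, Gm3776 and Gsta1 they were 2.08, 2.54 and 2.65 at ZT4 and 1.95, 2.17 and 2.05 at ZT12, all called. At ZT20 they were 1.43, 0.48 and 0.80 and were not called.

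Tsku (ENSMUSG00000049580, chromosome 7, 98350668 to 98361328), a secreted leucine-rich protein made by liver, had the largest difference downward, with 35.9, 15.2, 16.9 and 12.2 under DRF and 217, 237, 186 and 222 under NRF (log2 -3.47 ± 0.44, adjusted p = 1.36e-07). Noct (ENSMUSG00000023087, chromosome 3, 51224447 to 51251644), the rhythmic phosphatase nocturnin, was 5.15, 2.59, 2.52 and 2.47 under DRF and 40.7, 15.4, 35.4 and 33.2 under NRF (log2 -2.91 ± 0.54, adjusted p = 1.09e-04). Tfrc (ENSMUSG00000022797, chromosome 16, 32608920 to 32632794), the transferrin receptor through which cells take up iron, was 12.5, 6.51, 11.4 and 6.70 under DRF and 46.4, 59.4, 32.9 and 63.6 under NRF (log2 -2.34 ± 0.34, adjusted p = 1.88e-06). In each case the highest DRF value stayed under the lowest NRF value.

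Serpina1e (ENSMUSG00000072849, chromosome 12, 103946931 to 103958975), of the α1-antitrypsin family with near-identical copies, was 210, 163, 201 and 227 under DRF and 719, 949, 2685 and 880.2 under NRF (log2 -2.50 ± 0.49, adjusted p = 2.48e-04). Slco1a1 (ENSMUSG00000041698, chromosome 6, 141907282 to 141946962), an organic anion transporter, was 11.5, 9.24, 14.6 and 12.2 under DRF and 50.8, 44.7, 124 and 51.8 under NRF (log2 -2.30 ± 0.52, adjusted p = 0.00145). In both, NRF replicate 3 was far above the other 3 NRF libraries, and without it the adjusted p was 0.00413 and 0.0139. Nrep (ENSMUSG00000042834) was 3.87, 9.97, 6.01 and 4.39 under DRF and 24.4, 38.3, 30.8 and 47.6 under NRF (log2 -2.39 ± 0.30, adjusted p = 1.07e-07).

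Because DRF moves meals to the day, the same contrast at other hours shows how the differences at ZT16 compare. The other contrasts compare the means of other libraries. All contrasts come from the same fit and share its estimate of the spread of each gene, so calls at different times are not fully independent. At ZT4, in the light phase, 5165 genes were called (20.3%), at ZT12 3846 (15.1%) and at ZT20 3489 (13.7%). Of the genes called at ZT16, 1822 were also called at ZT4, or 47.4% of the calls at ZT16 and 35.3% of those at ZT4. Of these, 1689 (92.7%) had the opposite sign, 859 higher at ZT16 and lower at ZT4, and 830 the reverse. At ZT20, 1404 were called again (36.5% of the calls at ZT16 and 40.2% of those at ZT20), and 1249 of them kept their sign.

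Tested directly, the difference between regimens at ZT16 differed from that at ZT4 for 5494 genes (21.6%), from that at ZT12 for 3357 (13.2%) and from that at ZT20 for 1345 (5.3%). At ZT12 the overlap was 1245 genes, or 32.4% of the calls of each time, with 727 of the same sign and 518 of the opposite sign.

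Clock genes changed sign between these times. Arntl stood at a difference of -1.56 at ZT4, 4.62 at ZT12, 0.85 at ZT16 and -2.17 at ZT20, and its value at ZT16 differed from each of the others (adjusted p = 1.00e-09, 8.07e-14 and 5.56e-11). For Dbp the values were 2.17, -3.79, -0.82 and 2.85, and ZT16 again differed from each (adjusted p = 1.09e-10, 1.07e-09 and 7.78e-12). Nr1d1 went from -2.47 and -1.97 to 2.28 and 4.20 (adjusted p of ZT16 against each = 1.19e-11, 2.02e-09 and 0.00423). ZT16 thus fell between a time at which Arntl was far higher under DRF and one at which it was lower.

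Per2 differed from this pattern in that its difference at ZT16, -2.89, was not distinguishable from that at ZT20, -2.03 (difference -0.86, adjusted p = 0.2). It did differ from 3.88 at ZT4 and -1.31 at ZT12 (adjusted p = 1.36e-18 and 0.00181).

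Several list medians also changed sign between ZT4 and ZT16. The median of the heat shock list was 1.24 at ZT4 and -0.74 at ZT16, that of the ER list 0.56 and -0.40, and that of ribosome biogenesis 0.48 and -0.34. For amino acid breakdown the median was positive at both times, 0.30 and 0.42, and so it was for fatty acid oxidation, at 0.26 and 0.25. Cholesterol genes had a median of -0.07 at ZT4 and 0.35 at ZT16.

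**Figure D5:**
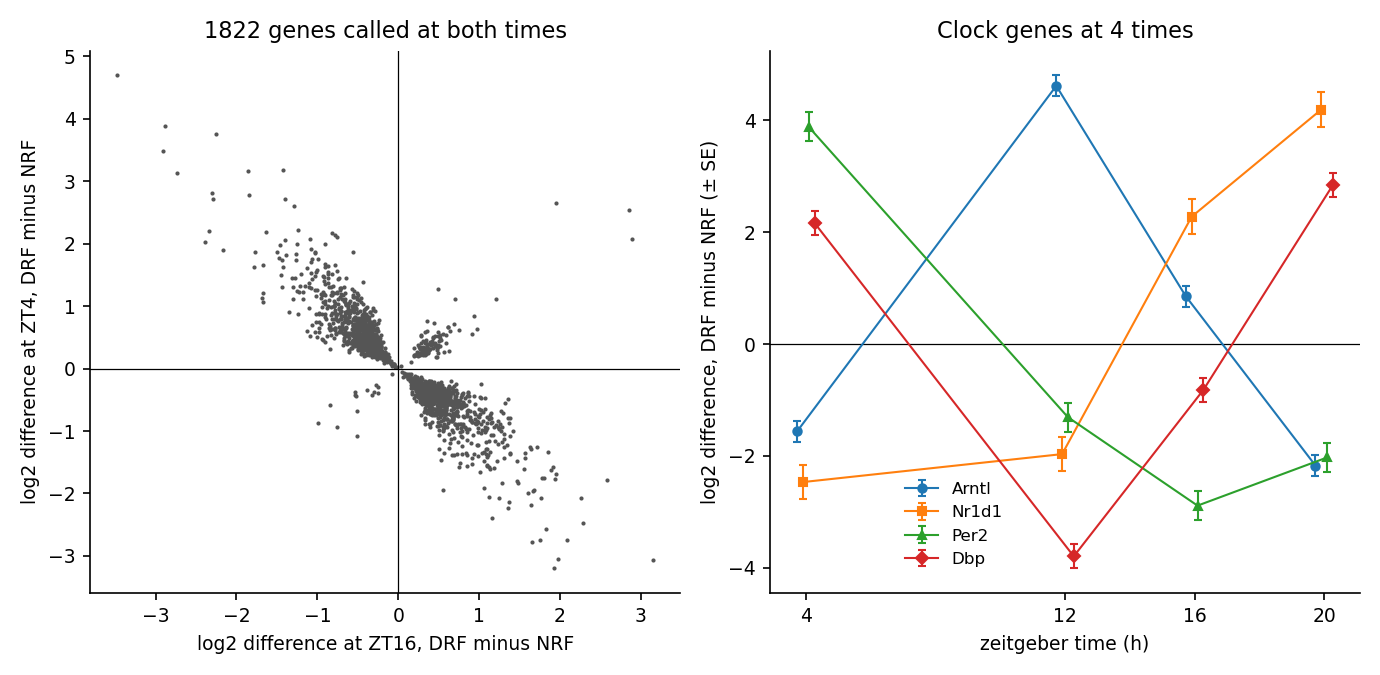
On the left, the log2 difference between DRF and NRF at ZT16 (horizontal) and at ZT4 (vertical) of the 1822 genes called at both times, 1689 of which lie in the quadrants of opposite sign. On the right, the log2 difference ± SE of Arntl, Nr1d1, Per2 and Dbp at ZT4, ZT12, ZT16 and ZT20, with points shifted sideways for legibility and lines only joining times of the same gene. Arntl falls from its highest point at ZT12 to below 0 at ZT20, while Dbp runs the other way.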

How the data were processed

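Livers of mice under each feeding regimen were sequenced as ribosomal RNA-depleted, strand-specific (dUTP) libraries with paired reads of 150 bases, although the molecule label reads polyA RNA. The authors counted reads per gene with featureCounts 1.5.0-p3 on mm10 (GRCm38.p6). The aligner and the strand setting are not given in the sources used here. The values the authors deposited as TPM were treated as a score, because multiplied by exon length they equal a library factor times the natural log of 1 plus a scale times a whole count. That relation was fitted per library, and whole counts were recovered for 25397 of 25415 genes at a tolerance of 0.05 counts or, in a second pass, 0.2. Among the 18 left out are Scd1, Ttr, Acaa2, Cyp2c29, C3, Plg and Rbp4. The design had assumed linear TPM. Transcript and circular RNA tables were not used here. A few listed genes stay in the list counts but are not reported here by name.

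Scaled counts (recovered count times the scale of its library) were taken as log2(value + 1) and fitted with limma 3.58.1 in R 4.3.3 (moderated test with a mean trend) over all 56 libraries and 14 group means, with Benjamini-Hochberg adjustment over 25397 genes and a call at an adjusted p under 0.05. A floor of 0.1 on the mean deposited value removed 0 genes. The step was tested on simulated data. Python 3.11.15, numpy 2.4.6, scipy 1.17.1, pandas 2.3.3 and matplotlib 3.10.9 did the rest. The 8 libraries held 309.0 to 603.2 M recovered counts. What a recovered count stands for is not known, so these are not numbers of reads. Recovered counts exceed read pairs, so no counting intervals were drawn from them and no count model was fitted. Replicates are labelled as separate samples. The labels do not say whether each came from its own mouse, so p-values measure the spread between libraries.

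Members and lists were chosen with earlier results of these data known. Named genes were the 10 higher and 10 lower with the largest log2 difference (Ensembl symbol, called, no overlap, mean of at least 5 in 1 group), any listed gene, and, between times, Arntl, Nr1d1, Per2 and Dbp. Other pseudocounts, filters, scalings, sample sets and libraries left out were tried as alternatives.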

Additional observations from a re-analysis of the deposited data

Results flagged for a closer look

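Among the named genes, 23 of 330 groups of 4 libraries held 1 library far from the rest by Dixon's ratio, which is the gap to the nearest library over the range of the group. Chance alone gives about 1 in 20. NRF replicate 3 accounted for 10 of the 23, DRF replicate 1 for 6, DRF replicate 4 for 3, NRF replicate 4 for 2, and NRF replicates 1 and 2 for 1 each.

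NRF replicate 3 was highest for genes of the ER, namely Hspa5 (0.922; 289.56 scaled counts against 122.65 in the next library), Manf (0.898) and Hsp90b1 (0.850). It was also highest for the nucleolar genes Ncl (0.883) and Nop58 (0.886) and for the proliferation marker Mki67 (0.842). Genes of liver secretion and uptake stood highest there as well, Serpina1e (0.883; 2685 against 949) and Slco1a1 (0.910; 124 against 51.8). It was lowest for Ppp1r3b (0.906) and Abcb11 (0.839).

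DRF replicate 1 was highest for Noct (0.955; 5.15 against 2.59), Tsc22d3 (0.922), Arntl (0.917; 71.2 against 56.9), Cdkn1a (0.905), Lpin1 (0.876; 277 against 106) and Myc (0.870). DRF replicate 4 was lowest for Wee1 (0.957) and highest for Hsp90aa1 (0.861) and Gys2 (0.834). In the NRF group, replicate 4 was lowest for Ciart (0.933) and highest for Hmgcs1 (0.866), replicate 2 highest for Tdo2 (0.933) and replicate 1 lowest for Fads2 (0.872).

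The difference between regimens at ZT16 was itself compared with that at other times by interaction terms of the limma fit. It differed from ZT4 in 5494 genes, from ZT12 in 3357 and from ZT20 in 1345. For Arntl, the difference at ZT16 minus that at ZT4, ZT12 and ZT20 was 2.42, -3.76 and 3.03 on the log2 scale. For Nr1d1 the same 3 values were 4.75, 4.25 and -1.92. For Dbp they were -2.99, 2.98 and -3.67. For Per2 the values against ZT4 and ZT12 were -6.77 and -1.58.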

How the results depend on the processing

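With only the 8 libraries in the fit, and so fewer degrees of freedom, 1683 genes were called at ZT16 in place of 3847, and the interaction with ZT12 fell from 3357 to 2132 genes and that with ZT20 from 1345 to 881. On the values as deposited 2905 genes were called and the interaction with ZT20 held 807. The share of called genes that were higher under DRF was 57.6% and turned to 46.9% after correction for exon length. The length index (DRF minus NRF 0.0117) turned to -0.0827 over genes with a mean of at least 1 scaled count, and the cause was not tested. Its exact two-sided permutation p was 0.743 and 0.2, where 4 against 4 cannot go below 0.0286.

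Leaving out 1 library gave 2829 (without NRF replicate 3) to 4550 (without NRF replicate 4) called genes, a share of 54.5% to 61.0%, interactions of 5060 to 5480 genes with ZT4, 3004 to 3454 with ZT12 and 1037 to 1640 with ZT20, and a length index of -0.0150 (without DRF replicate 2) to 0.0320. Replicate numbers did not pair the libraries: deviations of same-numbered libraries correlated at -0.0737, -0.0786, -0.139 and 0.0699. With the replicate number as a block 3885 genes were called, and the interactions held 5471, 3405 and 1339.

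Of 164 named genes 135 were called, 81 of them under every alternative, 101 with any 1 library left out and 133 with the block. With only the 8 libraries 40 named calls were lost, and 27 on the values as deposited. None of the 2942 repeated values of named genes changed sign past the threshold. The median over all genes moved by less than 0.1 (log2) under each scaling. Depth is no limit for abundant genes, but genes near 1 scaled count rest on a pseudocount of the same size.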

Other observations

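Besides coding genes, noncoding transcripts also differed between the regimens at ZT16. Of 15070 protein-coding genes 3084 were called (20.5%), against 107 of 1083 lincRNA genes (9.88%), 114 of 1650 antisense genes (6.91%) and 9 of 877 miRNA genes (1.03%). Among genes with a mean of at least 1 scaled count, 24.6% of coding and 15.4% of lincRNA genes were called. The noncoding genes below were chosen after their values were seen, from those with the largest differences in each direction. Gm44787, a lincRNA on chromosome 11 (79258586 to 79273893, GRCm38), was 11.9, 11.3, 13.9 and 12.9 under DRF and 1.01, 1.57, 2.68 and 2.33 under NRF (log2 2.26 ± 0.28, adjusted p = 6.68e-08 in the limma fit). At ZT4 its difference was -2.07, and the 2 differences were themselves different (adjusted p = 6.10e-12). Gm47540, a lincRNA on chromosome 10, was 1.39 ± 0.19 higher on the log2 scale (adjusted p = 5.39e-07) and -1.36 at ZT4. Gm15622, annotated as antisense on chromosome 13, was 1.46 ± 0.24 higher (adjusted p = 1.63e-05) and 0.00 at ZT4. In the annotation, 12.8% of its exon bases lie opposite another gene, with Bhmt sharing the most. With the strand setting of the counting unknown, reads of Bhmt cannot be told apart from its own.

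Some noncoding genes lay within or across the spans of coding genes that moved the same way. Gm38357 (chromosome 3, 51231917 to 51234380) lies inside the span of Noct (51224447 to 51251644). It was 0.218, 0.194, 0.133 and 0.220 under DRF and 4.49, 2.87, 2.99 and 1.42 under NRF (log2 -1.67 ± 0.27, adjusted p = 1.39e-05). 9530052E02Rik (chromosome 8, 11007850 to 11054541) overlaps the end of Irs2 (10984681 to 11008458) and was higher (log2 1.56 ± 0.25, adjusted p = 7.95e-06). In the annotation, 8.76% of the exon bases of 9530052E02Rik lie opposite those of Irs2. The strand setting of the counting is not given in the sources used here, so the reads of that pair cannot be told apart. Gm38357 shares 0% of its exon bases with other annotated exons on either strand. Whether its reads come from RNA of Noct was not tested.

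Most genes called at both ZT4 and ZT16 had opposite signs, but 118 were higher under DRF at both times and 15 lower at both. Gm3776, Sult2a3 and Gsta1, described above, are of the first kind, with larger differences at both times than the genes named next. Others, chosen after their values were seen, include Retsat, the retinol saturase. Retsat was 467, 476, 501 and 434 under DRF and 254, 214, 288 and 232 under NRF at ZT16 (log2 0.93 ± 0.21, adjusted p = 0.00112). Its difference at ZT4 was 0.84 ± 0.21 (adjusted p = 0.00217), and the difference between the times was 0.09 (adjusted p = 0.884). Slc22a29, a gene of the organic anion transporter family, had differences of 1.20 ± 0.36 at ZT16 and 1.11 ± 0.36 at ZT4 (adjusted p = 0.0169 and 0.0215). Pls1, an actin-bundling plastin, had 0.70 ± 0.23 and 1.11 ± 0.23 (adjusted p = 0.0336 and 3.74e-04). Lower at both times were Smc6, of the SMC5/6 complex of DNA repair (log2 -0.32 ± 0.09 and -0.42 ± 0.09), and Tut7, a terminal uridylyltransferase (-0.25 ± 0.08 and -0.39 ± 0.08).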
